A study of Mus musculus with 3 samples.

Results

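A set of 10 genes of iron storage, iron transport and heme metabolism was followed in RNA bound to chromatin of mouse macrophages. They were the ferritin chains Fth1 and Ftl1, the transferrin receptor Tfrc, the metal transporters Slc11a1 and Slc11a2, the iron exporter Slc40a1, heme oxygenase Hmox1, the erythroid heme synthesis enzyme Alas2, and the iron regulatory proteins Aco1 and Ireb2. The genes were chosen by name from the pathway, and all 10 were found among the 55536 genes of the deposited tables, of which 22028 are protein-coding. There was 1 group, with biological replicates 1, 2 and 3 by label, each 1 library of bone marrow-derived macrophages (BMDM, primary cells grown from marrow) of strain C57BL/6J. All 3 had received Lipid A, the TLR4-binding part of bacterial lipopolysaccharide, at 100 ng/ml for 12 h, had been washed and kept without it for 12 h, and had then been given 100 ng/ml Lipid A for 20 min. The chromatin fraction was isolated, ribosomal RNA was depleted and total RNA was sequenced. Age and sex are not given, and 1 donor entry serves all 3 replicates, and part of their spread may be technical. No unstimulated or singly stimulated cells were analysed here, so no value below is an effect of Lipid A.

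Cells balance iron uptake, storage and export largely after transcription. When iron is scarce, the iron regulatory proteins bind a hairpin called the iron-responsive element (IRE): in a 5′ UTR this blocks translation, as for both ferritins, the exporter and Alas2, and in a 3′ UTR it protects the RNA from decay, as for Tfrc. Macrophages take up iron mainly by digesting old red blood cells, free it from heme with Hmox1, store it in ferritin or return it to plasma through Slc40a1, and during infection hold it back from microbes. RNA bound to chromatin is rich in nascent and partly spliced transcripts.

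The hairpin matches are shown first, because they are where the genes' RNAs differ in how the regulators can act on them. The GENCODE M21 transcripts were searched for the loop CAGTGN with a C placed 6 bases before it and a stem of 5 base pairs around the loop, of which at least 4 had to pair, G with T included; only the transcript strand was read. Of 21901 genes whose coding models were searched, 10.7% held a match with 4 or 5 pairs and 1.34% held one with all 5, so a match alone is a description and not a functional site. Each sequence below is given 5′ to 3′ on the transcript with the loop in capitals. The ferritin, exporter and Alas2 matches lay in 5′ UTRs and had 5 pairs.
Fth1, mm10 chr19:9982732-9982761, plus strand: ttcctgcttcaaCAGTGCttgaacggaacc
Ftl1, mm10 chr7:45459778-45459807, minus strand: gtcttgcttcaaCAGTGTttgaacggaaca
Slc40a1, mm10 chr1:45925464-45925493, minus strand: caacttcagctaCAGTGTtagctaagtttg
Alas2, mm10 chrX:150547458-150552150, plus strand, joined across an intron: ttggttcgtcctCAGTGCagggcaacagga

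The Alas2 letters shown were joined across an intron, with the first bases at 150547458-150547485 and the last 2 bases at 150552149-150552150. The C, the loop and all 5 stem pairs lay in the first stretch, so the match itself did not depend on splicing. Tfrc held 4 matches in its 3′ UTR, all with 5 pairs, and Slc11a2 held 1 in the 3′ UTR of a single model, with 4 pairs.
Tfrc, mm10 chr16:32631219-32631248, plus strand: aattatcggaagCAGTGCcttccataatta
Tfrc, mm10 chr16:32631598-32631627, plus strand: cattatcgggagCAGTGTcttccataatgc
Tfrc, mm10 chr16:32631663-32631692, plus strand: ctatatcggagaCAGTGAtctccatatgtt
Tfrc, mm10 chr16:32631710-32631739, plus strand: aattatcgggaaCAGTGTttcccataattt
Slc11a2, mm10 chr15:100395152-100395181, minus strand: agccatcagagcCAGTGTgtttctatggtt

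Slc11a1 had a match of 4 pairs within its coding sequence, and Hmox1, Ireb2 and Aco1 had none in these letters.

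The libraries held 13953780, 24222661 and 16571228 expected counts in replicates 1, 2 and 3, and were made from 1 µg, 250 ng and 500 ng of RNA by label, so input, depth and replicate cannot be told apart. Levels are in TPM, which scales counts by transcript length and library. All 10 of 10 macrophage markers passed 1 TPM in every library, with a sum of 895 to 1109 TPM, while 0 of 11 erythroid, 0 of 8 neutrophil, 0 of 6 T and B cell and 0 of 5 stromal and endothelial markers did. In the second quantification 2 erythroid, 2 neutrophil, 1 T and B cell and 2 stromal and endothelial markers passed. The nuclear RNA Malat1 averaged 28664 ± 6390 TPM (SD, n = 3). TPM values of replicate 2 sat low as a whole: the median protein-coding gene with at least 50 counts deviated from its own mean by 0.11, -0.18 and 0.08 in replicates 1, 2 and 3 on the log2 scale. Libraries were therefore compared on log2 CPM with TMM scaling, on which these deviations were -0.02, 0.02 and 0.01.

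All 10 genes, each summed over its coding and other models, reached 1 TPM in every library, against 45.2% of protein-coding genes. Their median level was 60.9 TPM, against 0.677 TPM for all protein-coding genes. It was 11.8 TPM for the protein-coding genes at 1 TPM or more in every library. On the log2(TPM + 1) scale the difference of the median level of these genes from that of all protein-coding genes was 5.16 ± 0.24 (SD, n = 3). By mean TPM the order was Fth1, Ftl1, Slc11a1, Slc11a2, Tfrc, Slc40a1, Ireb2, Hmox1, Aco1 and Alas2. The ranges of neighbours in this order overlapped for Slc11a2 and Tfrc, for Slc40a1 and Ireb2, and for Aco1 and Alas2, and in each of these 3 pairs 2 of 3 libraries kept the order. The other 6 neighbouring pairs did not overlap. In these bulk libraries fewer cells with a transcript and less of it per cell cannot be told apart.

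**Figure D1:**
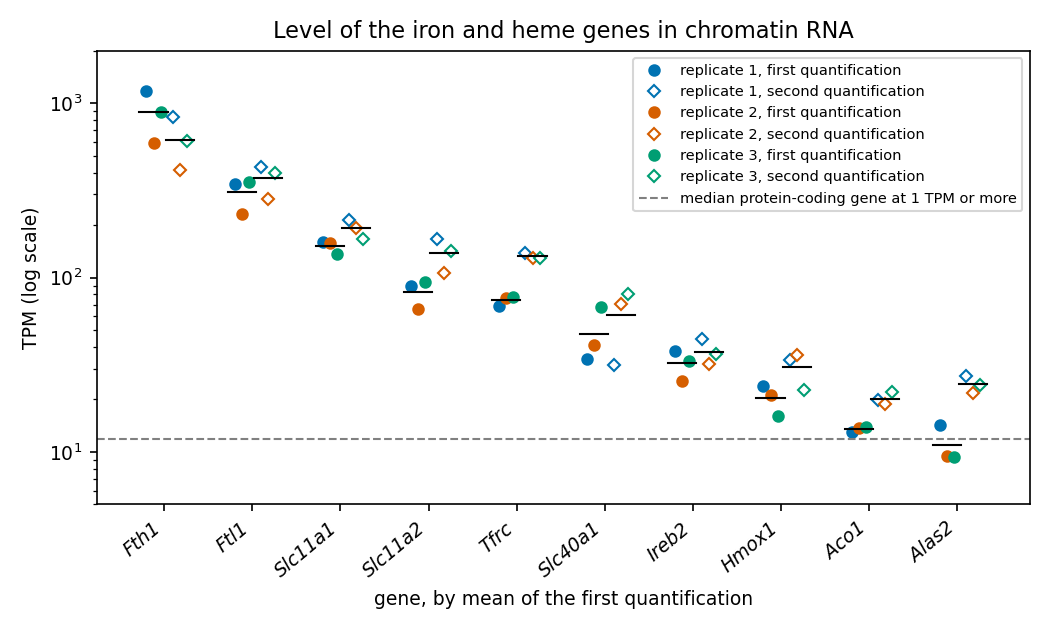
TPM on a log axis for each gene, with filled circles for the first quantification (the gene table), open diamonds for the second and a colour for each library. Short lines are means of 3 libraries. The dashed line is the median protein-coding gene at 1 TPM or more in every library. Fth1 and Ftl1 lead in both quantifications, and Aco1 and Alas2 end the order in both, with their places exchanged in the second.

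By TPM the storage genes had the highest levels of the 10. By mean CPM Fth1 was again first, but Slc11a2 at 172 ± 12.9 stood beside Ftl1 at 169 ± 23.4 (SD, n = 3). Slc11a1 moved from position 3 by TPM to position 7 by CPM. Fth1, the heavy ferritin chain that oxidises iron on entry (chr19:9980598-9985098, plus strand, mm10), had 1179, 588 and 894 TPM in replicates 1, 2 and 3, on 13742, 14687 and 12645 counts. It ranked 12 of 22028 protein-coding genes. Ftl1, the light chain that helps the iron core form (chr7:45457944-45459884, minus strand), had 345, 232 and 353 TPM and ranked 86. Fth1 was higher in replicate 1 than in the others and both chains were lowest in replicate 2, yet the 2 genes did not overlap in level. Fth1 stood 3.41-, 2.53- and 2.54-fold above Ftl1, a mean log2 ratio of 1.48 ± 0.25 (SD, n = 3). In the second quantification the same ratio was 0.70 ± 0.22 on the log2 scale. No test was run on this or any other ratio, since a two-sided exact sign-flip test over 3 libraries cannot give a p below 0.25.

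Most Fth1 counts were assigned to annotated models that keep an intron. Retained-intron models held 96.0%, 96.8% and 94.2% of Fth1 counts in replicates 1, 2 and 3, with 95% Wilson intervals of 95.6 to 96.3, 96.5 to 97.1 and 93.8 to 94.6%. Fth1-208, which spans all 1197 bases of intron 1 and carries the IRE match, had 8128, 8620 and 7789 counts. Fth1-202 covers all 232 bases of intron 2 and had 3441, 3648 and 2815 counts, and Fth1-207 covers all 95 bases of intron 3 and had 1564, 1876 and 1280. The full-length coding model Fth1-201 had only 278, 357 and 532 counts. Each of the 3 introns thus had its own model. Fth1-208 had the most counts, while per length Fth1-202 was the highest model, with a mean of 314 TPM beside 286 TPM for Fth1-208. The tables do not say whether a read crossed an intron boundary, so a fully unspliced RNA and partly spliced ones cannot be told apart.

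**Figure D2:**
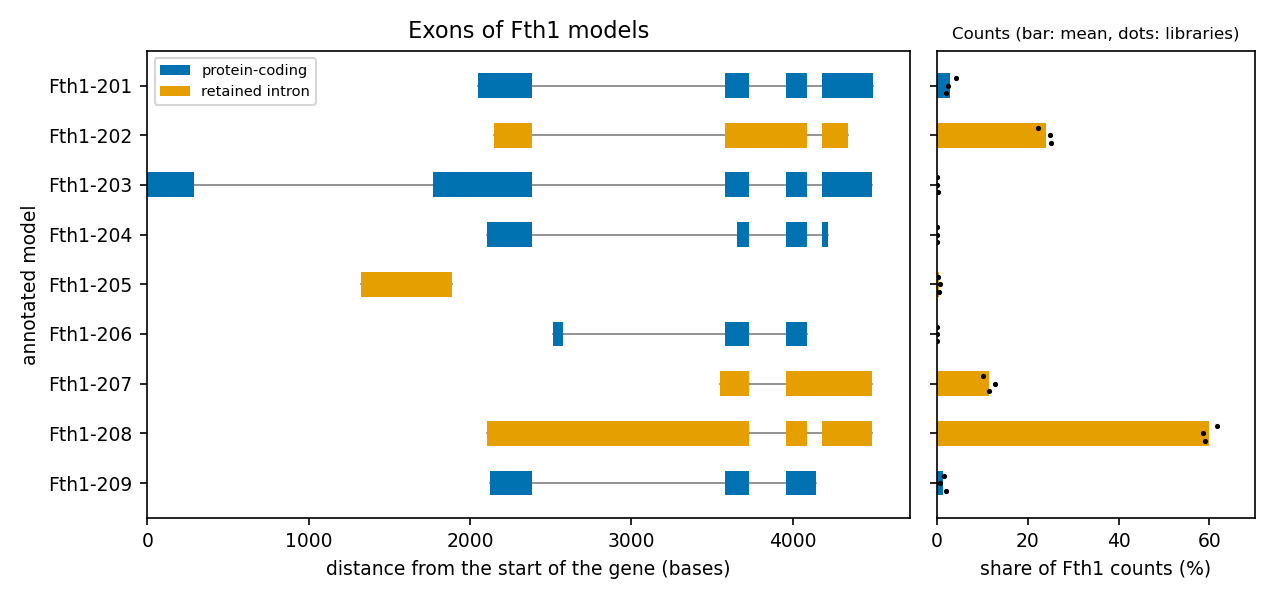
Left, exons of the 9 annotated Fth1 models by distance from the start of the gene in bases, coding models in blue and retained-intron models in orange; right, the share of Fth1 counts on each, with bars for the mean and dots for the 3 libraries. Fth1-208 holds 59.8% on average and Fth1-201 2.88%.

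Ftl1 was divided more evenly. Its coding model Ftl1-201 had 1156, 1601 and 1763 counts, the retained-intron models Ftl1-205 and Ftl1-206 had 601, 1102 and 774 and 413, 672 and 427, and the nonsense-mediated decay model Ftl1-202 had 326, 47.2 and 33.6. The coding share of Ftl1 counts was 46.3%, 46.8% and 58.8%, highest in replicate 3. It was lower in the second quantification, at 20.5 ± 4.08% (SD, n = 3), where Ftl1-202 took 1468, 1287 and 1282 counts.

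Ferritin genes have processed copies that can share reads with them. By sequence, 16 loci matched Ftl1-201 over at least 300 bases at 85% identity or more, and 7 of them had counts, which made up 2.81%, 4.997% and 3.77% of the counts of Ftl1 and its copies. Ftl1-ps1, 99.6% identical over 910 bases, averaged 5.73 ± 2.55 TPM, Gm15590, 99.1% identical, 3.45 ± 0.602 TPM, and Gm15580, 87.1% identical, 3.53 ± 1.81 TPM (SD, n = 3). Gm2767 and Gm48979 averaged 1.95 and 1.39 TPM. Ftl1 was also overlapped on the opposite strand by Gm10252, which shares 355 exonic bases with Ftl1-201 and had 25.2, 11.6 and 16.9 TPM, and it contains the annotated miRNA Gm22133, listed at 0. Of 2 loci matching Fth1, Fth-ps3 had 7 counts in replicate 1 and 0 in the others. Fth-ps2, found by its symbol, averaged 8.04 ± 2.14 TPM. Best1, on the opposite strand 75 bases beyond Fth1, averaged 3.94 ± 1.30 TPM. The strand setting of the counting is not given in the sources used here, so reads of overlapping genes on opposite strands may have been divided in error.

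The uptake genes lay in the middle of the order by TPM. Tfrc, the receptor that takes up transferrin-bound iron (chr16:32608920-32632794, plus strand), had 68.9, 76.6 and 77.5 TPM in replicates 1, 2 and 3, a narrow range in TPM. On log2 CPM it was lowest in replicate 1, at 6.54, with 7.29 and 7.09 in replicates 2 and 3, an SD of 0.39 that exceeded the SD of 86.1% of protein-coding genes. Its coding share of counts was likewise lowest in replicate 1, at 43.2%, against 60.2% and 62.9% in replicates 2 and 3. The full-length coding model Tfrc-201 had 402, 2122 and 1241 counts, and Tfrc-204, a model that keeps 326 of the 331 bases of intron 14, had 551, 988 and 609. Both contain the 4 IRE matches, and together they held 72.9%, 83.8% and 83.4% of Tfrc counts. By TPM the largest model was the retained-intron Tfrc-205, of 571 bases, with 36.3%, 26.6% and 33.3% on 103, 174 and 120 counts. Tfrc-201 had 7.31, 17.51 and 18.75 TPM, so the narrow range of the gene's TPM did not hold for this coding model. The second quantification put Tfrc at 138, 129 and 129 TPM, of which the short model Tfrc-203, of 166 bases and at 0 in the first, accounted for 59.1 TPM on average.

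Slc11a2, which moves iron(II) across the cell and endosome membrane (chr15:100387898-100425072, minus strand), had 89.1, 66.1 and 94.1 TPM. On log2 CPM its values were 7.48, 7.33 and 7.46, an SD of 0.08 that was larger than that of only 15.0% of protein-coding genes. Almost all its counts were on coding models, with 97.6%, 97.1% and 96.5%. The isoforms with and without the IRE differ in their last exon: Slc11a2-205, with the match, had 1663, 2505 and 1903 counts, and Slc11a2-201, without it, had 671, 992 and 758. Per length Slc11a2-205 exceeded Slc11a2-201 by 1.66-, 1.68- and 1.67-fold in TPM, a log2 ratio of 0.74 ± 0.01 (SD, n = 3). The second quantification gave 0.50 ± 0.06. The last exon of Slc11a2-205 covers 2707 of the 6108 bases of intron 16 of Slc11a2-201. Reads of that stretch in unspliced RNA cannot be told apart from reads of this exon. Neither the coding share nor this ratio separates them. Gm5475 overlaps Slc11a2 on the opposite strand over 402 exonic bases and averaged 3.15 ± 1.19 TPM.

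Slc11a1, the phagosome metal pump known as a resistance gene against intracellular bacteria (chr1:74375195-74386062, plus strand), had 161, 158 and 137 TPM in replicates 1, 2 and 3. C57BL/6 mice are known for a loss-of-function coding allele of this gene. It was above Slc11a2 in every library, by 1.80-, 2.39- and 1.46-fold in TPM, a log2 ratio of 0.88 ± 0.36 (SD, n = 3). By CPM, which does not divide by length, the direction turned, with a log2 ratio of -0.53 ± 0.34. Its counts were spread over 11 models. The coding model Slc11a1-201 had 626, 1546 and 638, and the retained-intron model Slc11a1-203, which keeps introns 5 and 11 whole, had 347, 599 and 312. Models that are not protein-coding held 61.5%, 54.1% and 60.5% of its counts. By TPM the largest model was the short Slc11a1-206, of 378 bases, with a mean of 58.3 TPM on 108, 227 and 116 counts, so much of the gene's TPM rested on few reads over a short model.

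Slc40a1, ferroportin, the only known iron exporter of mammalian cells (chr1:45908068-45926523, minus strand), was the most variable of the 10. It had 34.3, 40.9 and 67.4 TPM in replicates 1, 2 and 3, on 1324, 3534 and 3143 counts. On log2 CPM it was highest in replicate 3, at 7.59, and lowest in replicate 1, at 6.56, a 2.05-fold span whose SD of 0.52 exceeded that of 93.9% of protein-coding genes. Tfrc stood above it by 2.01-, 1.87- and 1.15-fold in TPM, a log2 ratio of 0.71 ± 0.44 (SD, n = 3). By CPM this direction turned too, at -0.15 ± 0.31. The retained-intron model Slc40a1-208, which keeps 3068 of the 5827 bases of intron 5, had 705, 2021 and 1677 counts, more than the coding Slc40a1-201 with 466, 1154 and 1131. The coding share was nonetheless steady, at 35.2%, 32.6% and 36.0%. The models with most of the counts all contain the IRE match, so 99.8%, 99.9% and 99.9% of counts were on models that hold it.

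Hmox1, the inducible enzyme that opens the heme ring and frees its iron (chr8:75093621-75100589, plus strand), had 23.7, 21.3 and 16.0 TPM in replicates 1, 2 and 3, on 327, 628 and 254 counts. It was lowest in replicate 3 on both scales, with log2 CPM of 4.55, 4.73 and 3.97. Its counts were mostly coding, with 89.3%, 88.6% and 87.8% on Hmox1-201. Hmox2, the constitutive heme oxygenase, had 18.5, 15.3 and 15.0 TPM. The ratio of Hmox1 to Hmox2 was 1.28, 1.39 and 1.06 in the 3 libraries, a log2 ratio of 0.31 ± 0.20 (SD, n = 3). In the second quantification the mean ratio had the opposite sign, -0.14 ± 0.47, so the order of the 2 heme oxygenases was not resolved.

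Alas2, the erythroid form of the first enzyme of heme synthesis (chrX:150547375-150570638, plus strand), was the lowest of the 10, with 14.2, 9.44 and 9.37 TPM on 58.9, 81.2 and 44.0 counts. Alas1, the form used in other tissues, had 21.3, 24.6 and 23.9 TPM, and the ratio of Alas2 to Alas1 was 0.668, 0.384 and 0.393, a log2 ratio of -1.10 ± 0.45 (SD, n = 3). In the second quantification the ratio was 1.10, 0.728 and 0.902, a log2 ratio of -0.16 ± 0.30, so the order of Alas2 and Alas1 was not resolved there. Coding models held 26.4 ± 1.23% of Alas2 counts in the first quantification, and 65.7 ± 0.345% in the second (SD, n = 3). The retained-intron model Alas2-203, of 485 bases, held 60.3%, 58.6% and 58.3% of counts, and with so few counts the 95% Wilson intervals ran from 48.3 to 72.4, 48.4 to 69.3 and 44.4 to 72.3%. Alas2-201, the only model with the IRE match, was assigned 0 counts in all 3 libraries by the first quantification. By TPM Alas2-203 held 79.9%, 80.0% and 79.6% of the gene there, on 35.5, 47.5 and 25.6 counts. Alas2-202, the other coding model, had 0.75, 0.51 and 0.51 TPM. The first Alas2 level, and its ratio to Alas1, thus rested mostly on few reads over a short retained-intron model.

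Other values stood beside the Alas2 level, and their part in it was not tested. The erythroid markers summed to 0.46, 1.25 and 0.65 TPM, with Hbb-bs, Hbb-bt and Rhag among those at 0, and to between 12.5 and 17.7 TPM in the second quantification, where Rhag had 7.19, 3.73 and 4.54 TPM. Alas2 lies wholly within the span of Apex2, a DNA repair gene on the opposite strand that had 26.8, 20.3 and 23.2 TPM. Apex2 exons cover 311 bases of Alas2-201, 295 of the 569 bases of Alas2-204 and none of Alas2-203. Alas2-203 still lies opposite an intron of Apex2, and whether unspliced Apex2 RNA added to its counts was not tested. Mir3620 lies at the start of Alas2 and was listed at 0. The second quantification placed Alas2 at 27.4, 21.8 and 24.2 TPM and gave Alas2-201 217, 413 and 247 counts, while Alas2-202, which had 14.7, 22.0 and 11.9 counts in the first, was then at 0. The 2 quantifications thus did not give the same Alas2 transcript.

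Of the regulators, Ireb2 (iron regulatory protein 2, chr9:54863789-54912530, plus strand), which is degraded when iron is plentiful, had 37.9, 25.6 and 33.0 TPM. Its log2 CPM of 7.08, 7.05 and 7.01 were almost the same in the 3 libraries, and only 3.33% of protein-coding genes had an SD below its 0.04. Aco1 (iron regulatory protein 1, chr4:40143081-40198338, plus strand), which is an aconitase when it holds an iron-sulfur cluster and binds IREs when it does not, had 13.0, 13.7 and 13.9 TPM. Ireb2 stood above Aco1 by 2.92-, 1.86- and 2.37-fold, a log2 ratio of 1.23 ± 0.32 (SD, n = 3), and their ranges did not overlap. Coding models took 71.4%, 74.9% and 72.8% of Ireb2 counts, with the rest on Ireb2-202, a single exon that covers part of intron 16, all of intron 17 and 1910 of the 2331 bases of intron 18. Aco1 has no annotated retained-intron model, and 88.5%, 93.5% and 91.8% of its counts were on Aco1-201.

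Over the 10 genes, counts therefore ranged from nearly all on models annotated as coding to nearly all on models annotated as retained-intron. Among the 9 genes with a retained-intron model, Fth1, Slc40a1 and Alas2 had over 50% of counts on such models, 3 of 9 against 29.4% of the 6149 protein-coding genes with such a model and at least 50 counts. The median such gene had 29.9%, and 6 of the 9 lay above it. A share of 3 in 9 is near that background. In the second quantification 4 of 9 passed 50%: Alas2 no longer did, at 18.2 ± 1.63%, while Ftl1 and Slc11a1 did, at 53.6 ± 4.79% and 52.1 ± 7.77% (SD, n = 3). Fth1 stood far out by itself, above 98.9% of these genes, with Slc40a1 above 83.8% and Slc11a2, at 2.12%, above only 5.92%.

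**Figure D3:**
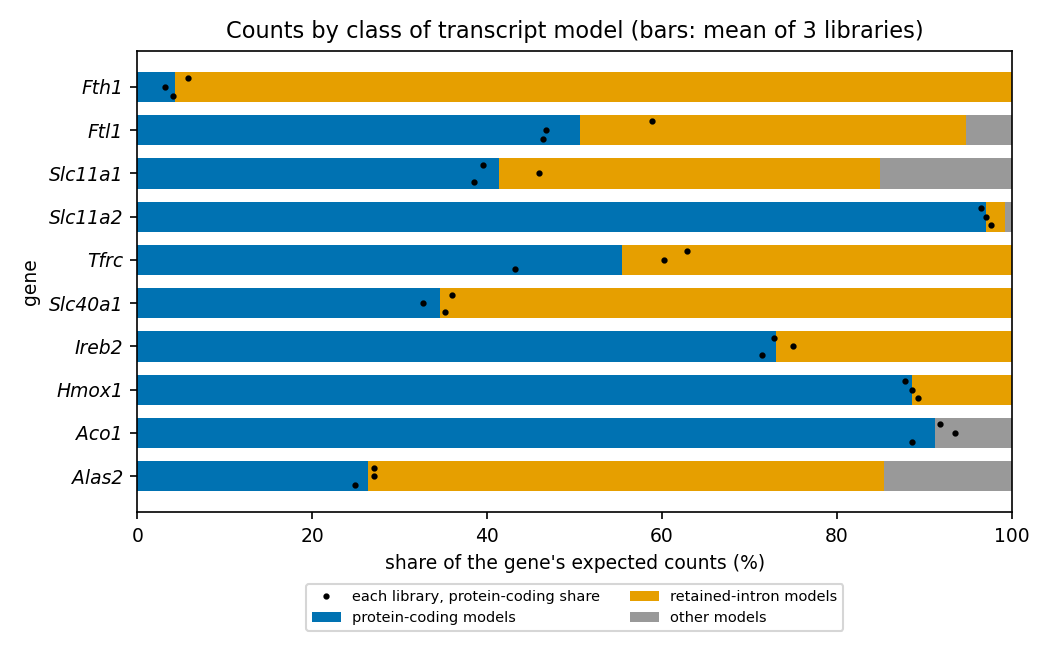
Share of each gene's counts in percent on coding, retained-intron and other annotated models, with bars for the mean of 3 libraries and dots for the coding share in each library. Fth1 is almost wholly on retained-intron models and Slc11a2 almost wholly on coding ones.

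The share of counts on IRE-bearing models divided the targets in another way. It was 63.2%, 61.9% and 67.4% for Fth1, where most of it came from Fth1-208, and 59.4%, 48.2% and 59.9% for Ftl1, lowest in replicate 2. For Slc11a2 it was 66.5%, 65.7% and 66.4%. Slc40a1 was near the top of the scale and Alas2 at 0. The second quantification kept Fth1 at 64.2 ± 2.68% (SD, n = 3), lowered Tfrc to 63.7 ± 5.55% and moved Alas2 to 65.7 ± 0.345%. These shares are of counts, which are not divided by model length. In TPM the share for Fth1 was 39.7%, 36.2% and 44.1% in replicates 1, 2 and 3. Mean TPM shares were 45.5% for Ftl1, 36.7% for Tfrc, 35.5% for Slc11a2, 98.7% for Slc40a1 and 0 for Alas2. In the second quantification the mean TPM shares were 39.7% for Fth1, 35.8% for Ftl1, 15.9% for Tfrc and 22.2% for Slc11a2. They were 66.3 ± 18.2% for Slc40a1 (SD, n = 3) and 24.8% for Alas2 there.

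**Figure D4:**
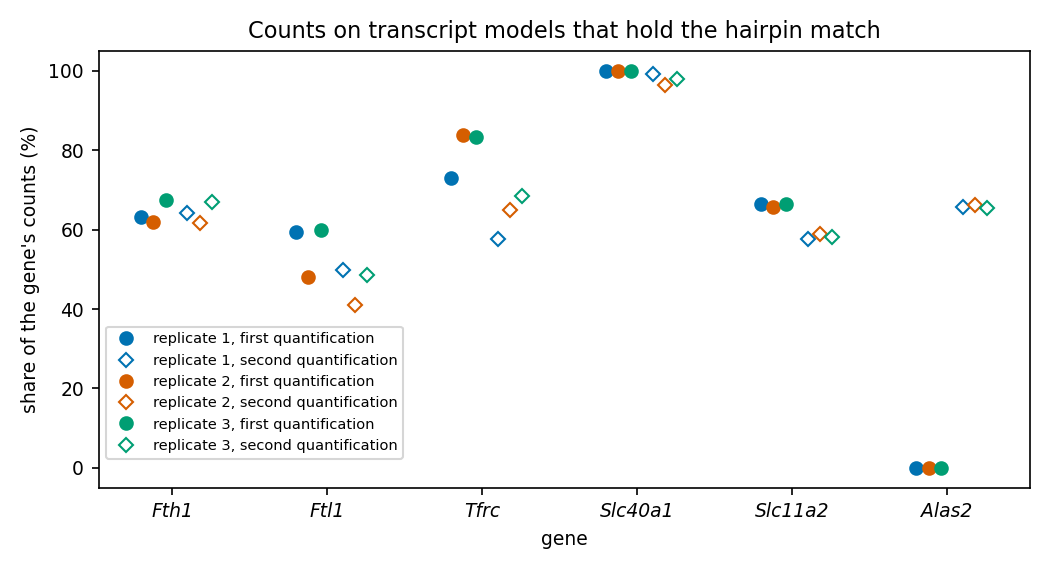
Share of each gene's counts in percent on transcript models that contain the hairpin match, by library (colour), in the first (filled) and second (open) quantification. Slc40a1 is near 100% in both, and Alas2 is at 0 in the first and at 65.5 to 66.1% in the second.

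The 10 genes did not move together between libraries. On log2 CPM, 4 were highest in replicate 1 (Fth1, Slc11a2, Ireb2 and Alas2), against 32.1% of protein-coding genes with at least 50 counts. In replicate 2 it was 4, against 39.6%, and in replicate 3 it was 2, against 28.3%. Lowest in replicate 2 were 3 genes, Fth1, Ftl1 and Slc11a2, against 33.9%. These shares are near the background. The median SD of log2 CPM was 0.31 for the 10 genes and 0.19 for the protein-coding genes, and 8 of the 10 exceeded 0.19, Slc11a2 and Ireb2 being the exceptions. Fth1 was lowest and Tfrc highest in replicate 2, with log2 CPM of 9.27 and 7.29.

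**Figure D5:**
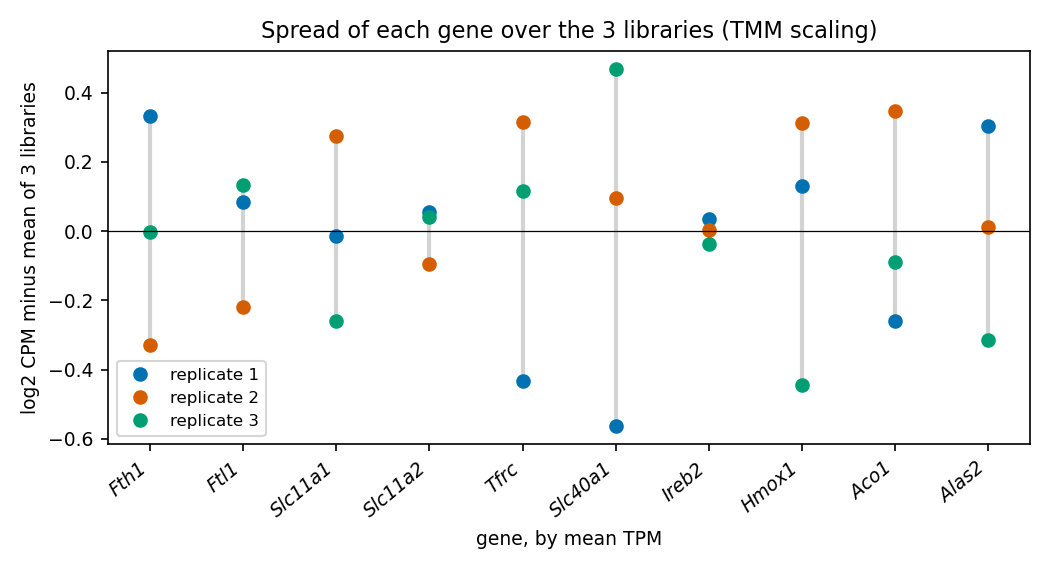
Difference of each library's log2 CPM (TMM scaling) from the gene's mean over 3 libraries, in log2 units, with 1 dot per library. Slc40a1 spreads most, with an SD of 0.52, and Ireb2 least, with 0.04.

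Other genes of the pathways were described by lists. Of 12 heme synthesis genes 11 reached 1 TPM in every library, against 45.2% of protein-coding genes, with a median of 8.45 TPM. The highest were Ppox, the enzyme before the last, at 30.8 ± 4.69, Alas1 at 23.3 ± 1.73, and Fech, which inserts the iron, at 16.9 ± 2.73 TPM, and the lowest was Alad, the second enzyme, at 1.07 ± 0.361 TPM (SD, n = 3). Every step from Alas1 to Fech thus had a mean above 1 TPM. In the second quantification all 12 genes passed, with a median of 13.0 TPM. Of 14 heme transport and breakdown genes 10 passed, with a median of 9.10 TPM, led by the hemopexin receptor Lrp1 at 260 ± 6.68, Bach1, the heme-sensing repressor of Hmox1, at 37.0 ± 9.34, and biliverdin reductase Blvrb at 36.8 ± 3.74 TPM. The haemoglobin scavenger receptor Cd163 was lowest, at 0.133 ± 0.0681 TPM. In the second quantification 10 of these 14 genes passed, with a median of 20.9 TPM. There Cd163 averaged 0.755 ± 0.361 TPM and Slc46a1 was lowest, at 0.428 ± 0.0427 TPM.

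Of 19 genes of iron transport and reduction 8 passed, near the 45.2% of protein-coding genes. Their median in the first quantification was 0.757 TPM, close to the protein-coding median of 0.677 TPM. Cp, the ferroxidase that works with ferroportin, had 189, 108 and 97.0 TPM, highest in replicate 1. Mcoln1, a lysosomal cation channel, averaged 68.9 ± 16.4 TPM and Slc25a37, the mitochondrial iron importer mitoferrin, 53.3 ± 12.5 TPM (SD, n = 3). Scara5, Steap1, Steap2, Steap4 and Tfr2 were listed at 0 in the first quantification. In the second, Scara5 had 4.06, 3.67 and 3.72 TPM and Tfr2 had 11.5, 7.38 and 12.3 TPM. Steap2 averaged 0.713 TPM there, and Steap1 and Steap4 stayed at 0. The second quantification had 11 of the 19 genes passing, with a median of 3.82 TPM. Of 16 matched genes of iron sensing, iron chaperones and ferritin turnover 9 passed, beside the same 45.2%, with a median of 7.48 TPM. Nfe2l2, an oxidative stress factor that can drive ferritin genes, had 175, 68.6 and 167 TPM, lowest in replicate 2. Pcbp2, an iron chaperone, averaged 120 ± 33.5 TPM, and Ncoa4, which delivers ferritin to the lysosome, 60.4 ± 8.35 TPM. Ftmt, Hamp and Hamp2 were listed at 0 in the first quantification. In the second quantification 11 of these 16 genes passed, with a median of 13.1 TPM.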

How the data were processed

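Per the labels, 3 libraries of ribosomal RNA-depleted total RNA from the chromatin fraction were sequenced. The authors deposited, for each library, gene and transcript tables with expected counts and TPM, and a second transcript table with estimated counts and TPM, here called the second quantification and summed by gene. Per the notes deposited with each library these use mm10 and annotation M21; neither the programs nor the strand setting is given in the sources used here. Entries that name no gene held 2.46, 0.484 and 0.327% of counts and stayed out of library sizes.

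The 10 genes and the gene lists were chosen with earlier results of these data known. Named genes are all 10, the 3 highest and the lowest of each list, ferritin copies averaging 1 TPM or more, and genes within 1000 bases. Hjv and Ahsp had no match. Expected counts were rounded to whole numbers for log2 CPM (edgeR 4.0.16, TMM factors 1.03, 0.984 and 0.985, prior count 2), for genes averaging 50 counts or more. DESeq2 1.42.0 size factors, a minimum of 10 counts, pseudocounts of 1 and 0.1, a threshold of 5 TPM, the second quantification and leaving out each library were alternatives. With 1 group no test was run. Copies were found with blastn 2.17.0 on the same strand. Intervals cover counting error only. Software was R 4.3.3, Python 3.11.15, pandas 2.3.3, numpy 2.4.6, statsmodels 0.14.6 and matplotlib 3.10.9. The spread measure and hairpin search were tested on simulated data.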

Additional observations from a re-analysis of the deposited data

How the results depend on the processing

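All 10 genes stayed above the threshold with the second quantification, CPM, rescaled TPM and a threshold of 5 TPM. Leaving out a library could not change this, since all 10 passed in each library. The difference of medians was 4.72 with the second quantification, 6.07 with CPM, 6.33 with a pseudocount of 0.1 and 2.34 against genes of at least 1 TPM. Under the second quantification the log2 ratios became 0.70 for Fth1 over Ftl1, 0.88 for Ireb2 over Aco1, 0.49 for Slc11a1 over Slc11a2, 1.23 for Tfrc over Slc40a1, -0.16 for Alas2 over Alas1 and, reversed, -0.14 for Hmox1 over Hmox2; the cause was not tested. With CPM, which does not divide by length, they were 2.21 for Fth1 over Ftl1, 2.50 for Ireb2 over Aco1, -3.00 for Alas2 over Alas1 and, reversed, -0.53 for Slc11a1 over Slc11a2 and -0.15 for Tfrc over Slc40a1. The median share of counts on models that are not protein-coding was 47.0%, and 34.6% in the second quantification. Leaving out each library in turn gave a median SD of log2 CPM between 0.20 and 0.24, beside 0.31 with all libraries. An SD over fewer libraries tends to be lower, and protein-coding genes were not measured in this setting. The fall is therefore not read as dependence on a library. Every TPM ratio had the same sign in each library, so leaving one out could not reverse it. The second quantification moved 6 of 10 gene levels by more than their SD over libraries and kept the main model, by TPM, of 8 of 10 genes, all but Ftl1 and Tfrc. No paired analysis was possible because the series holds 1 group. Alas2, with 44.0 to 81.2 counts in each library in the first quantification, is the least precise of the genes.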

Other observations

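The genes Tfr2, Rhag and Epb42, picked after their values were seen, were at or near 0 in the first quantification and above 1 TPM in the second. Tfr2, the second transferrin receptor, stood at 0 in every library and had 11.5, 7.38 and 12.3 TPM in the second. Rhag, an erythroid membrane protein, was listed at 0 and had 7.19, 3.73 and 4.54 TPM. Epb42, a red cell membrane skeleton protein, had 0.33, 0.31 and 0.18 TPM and then 10.1, 7.49 and 8.10 TPM, while Hbb-bs and Hbb-bt stayed at 0 in both.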
